A study of Mus musculus with 168 samples.

Results

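The Hox genes of clusters A to D were followed through the hippocampus of an allelic series of Huntington's disease mice. Every gene whose symbol is Hox, a cluster letter from a to d and a number was taken, with no minimum on its counts. This gave 38 of the 39179 genes counted, with 11 in cluster A, 10 in cluster B, 9 in cluster C and 8 in cluster D. GENCODE M21 lists 39 mouse Hox genes, and Hoxd4 was not analysed here.

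The mRNA of the hippocampus was sequenced in 8 libraries for each of 7 genotypes at each of 3 ages (2, 6 and 10 months). The mice were heterozygous for a knock-in allele of Htt, the huntingtin gene, in which a human exon 1 carries a CAG repeat of about 20, 80, 92, 111, 140 or 175 units (Q20, Q80, Q92, Q111, Q140 and Q175), from crosses to C57BL/6J. The alleles were tm2Mem (Q20), tm1.1Pfs (Q80), tm4Mem (Q92), tm5Mem (Q111) and tm1Mfc (Q140). Each mouse also carried a wild-type Htt allele, and wild-type (WT) mice carried 2 such alleles, which were entered with a repeat of 7. A group held 4 females and 4 males, except Q20 at 10 months with 5 females and Q80 at 2 months with 5 males. WT and Q20 together served as the 16 controls of an age. Each repeat length is a line of its own, Q175 arose from Q140 by spontaneous expansion, and the WT mice were littermates of the Q20 line, so CAG length and line cannot be told apart.

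Hox genes encode homeodomain transcription factors that give cells their position along the body axis. Within a cluster their order on the chromosome follows the order of their expression, with low paralogue numbers at the 3′ end used in the hindbrain and high numbers at the 5′ end used toward the tail. The forebrain, from which the hippocampus forms, lies in front of the region that uses Hox genes in the embryo. In cells that do not use them the clusters are held silent by Polycomb complexes.

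Between 30596439 and 46434038 counts were assigned to genes per library. Levels are given in CPM, the count scaled to a common library total, and most members lay at a few counts per library or none. Over all libraries the 38 genes had 3072 counts. 7 of them (Hoxa10, Hoxa11, Hoxb1, Hoxc11, Hoxc12, Hoxd11 and Hoxd12) had none. 12 libraries had a low standardized connectivity (under -5) within their age, among them Q175 male 4 at 10 months. Hippocampal neuron markers were high in Q175 and in the controls (summed level of 9 genes between 765 and 1490 CPM over the 3 ages), and the markers of the labelled tissue were present.

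The Q175 libraries of 10 months stood above every other library. Their summed Hox level was 3.38, 4.51, 2.79 and 5.71 CPM in females 1 to 4 and 2.70, 3.69, 2.86 and 3.23 CPM in males 1 to 4. The other 160 libraries lay between 0.0790 and 0.913 CPM with a median of 0.301. The 2 sets did not overlap. The mean was 3.61 ± 1.03 CPM (SD, n = 8) in Q175 and 0.288 ± 0.120 CPM (SD, n = 16) in the controls of the same age, and the ratio of the medians was 11.1. A sum over the members is a description and was not tested. At 10 months the 8 libraries of Q140, the line with the next longest repeat, ranged from 0.122 to 0.572 CPM and overlapped with every other group but Q175. The library at 0.572 was the highest outside Q175 at that age.

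**Figure D1:**
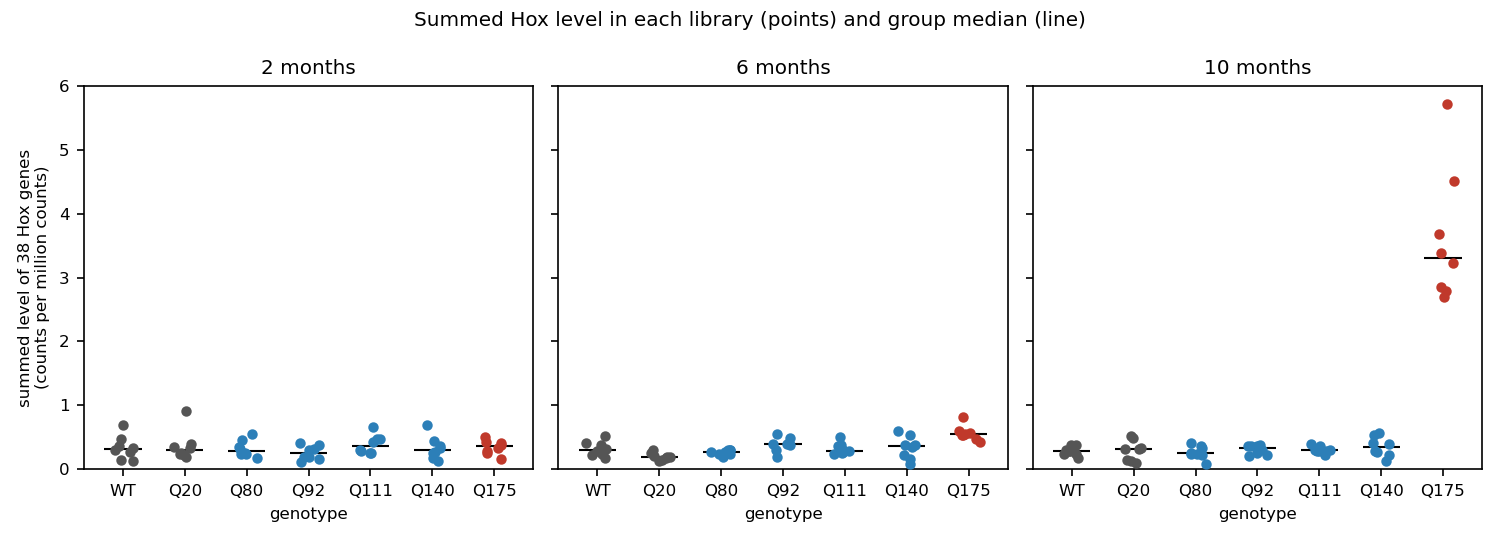
Summed level of the 38 Hox genes in CPM (vertical axis) in each library (points) by genotype (horizontal axis) at 2, 6 and 10 months, with the group median as a line. The 8 Q175 libraries at 10 months lie between 2.70 and 5.71 CPM and all other 160 libraries at or below 0.913 CPM.

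The height was found in both sexes and in both lane runs. The lane runs are not named in the labels and were inferred from the order of library and lane numbers. Among females the 4 Q175 libraries ranged from 2.79 to 5.71 CPM and the 25 others of that age from 0.102 to 0.515. Among males the 4 Q175 libraries ranged from 2.70 to 3.69 CPM and the 23 others from 0.0873 to 0.572. In the run of lanes with 6 Q175 libraries these ranged from 2.70 to 5.71 CPM, and in the other run, with 2, they were at 2.79 and 3.23. A Q175 library also held more Hox genes, with 15 to 24 members counted (median 19) against 3 to 8 in WT and 2 to 9 in Q20.

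The clusters did not share the excess evenly. Cluster C went from 12 counts in 16 controls to 384 in 8 Q175 libraries, a ratio per total count of 60.9 (95% interval 34.5 to 119, exact binomial, which like all such intervals here covers counting error only). Cluster A went from 84 to 540 counts (12.2, 9.71 to 15.6). Cluster B went from 33 to 109 (6.29, 4.23 to 9.59) and cluster D from 41 to 76 (3.53, 2.38 to 5.29). The interval of cluster C lies above those of the other clusters, and those of B and D overlap. The control totals of the other clusters rest largely on single genes. Hoxa7 held 77 of the 84 control counts of cluster A, Hoxb4 19 of the 33 of B and Hoxd1 28 of the 41 of D. The ratios depend on these genes and do not rank how far the remaining members of each cluster rose. Clusters A and C, which held 41.3% and 8.10% of the Hox counts in the other 160 libraries, made up 48.7% and 34.6% of the 1109 Hox counts of Q175 at 10 months.

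**Figure D2:**
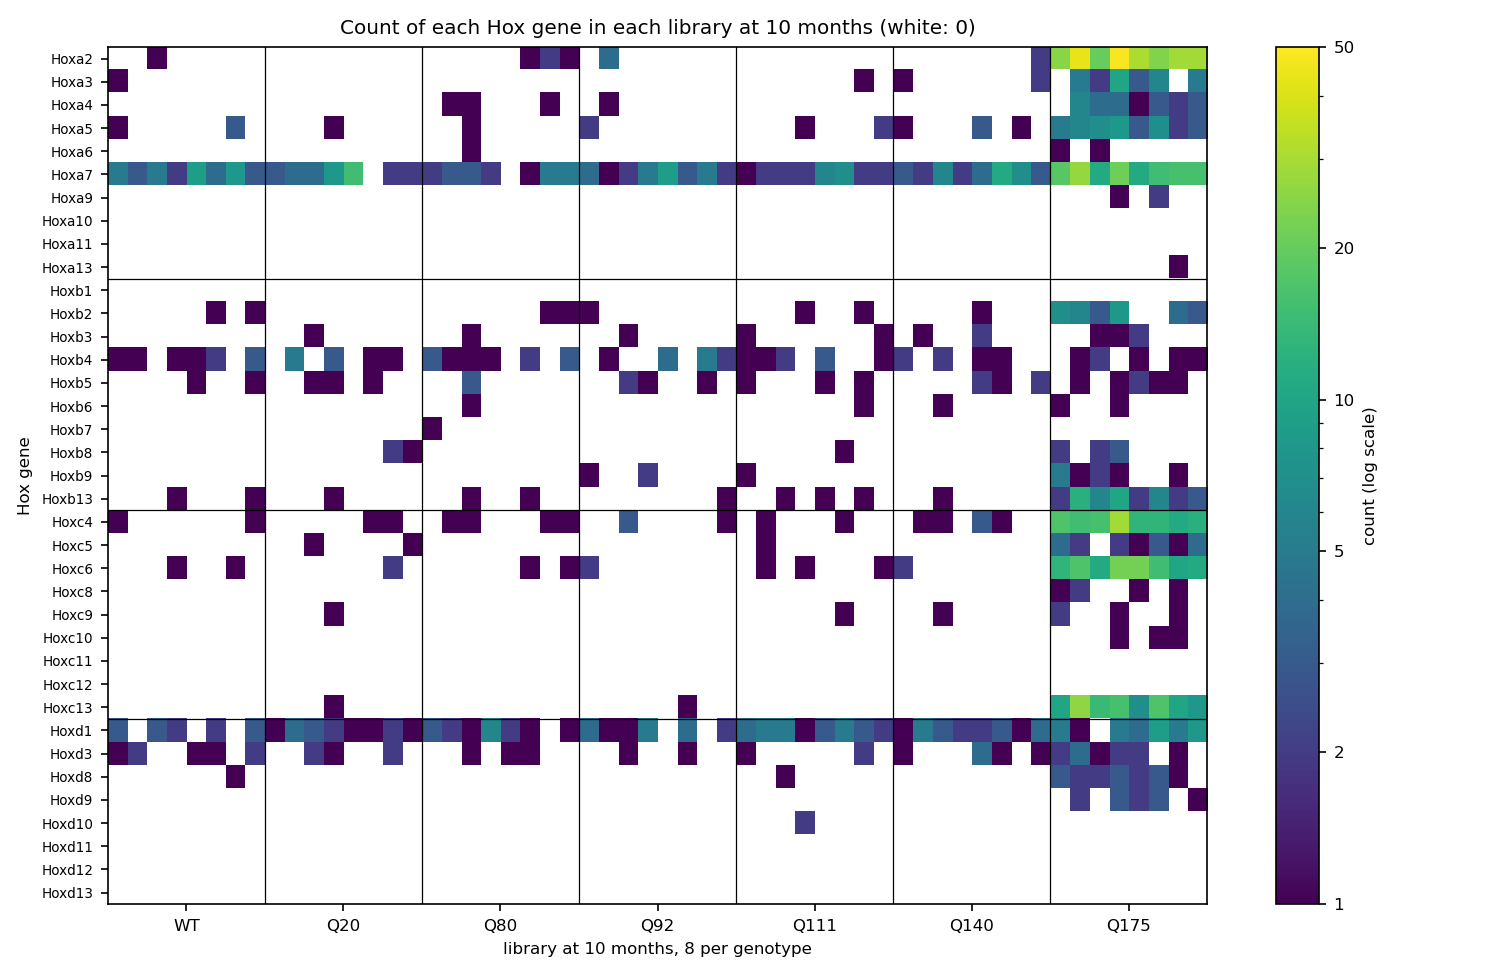
Count of Hox genes (rows, by cluster and paralogue number) in each of the 56 libraries of 10 months (columns, 8 per genotype), coloured on a log scale with white for 0. Hoxa7 and Hoxd1 are filled in most columns, while Hoxa2, Hoxc4, Hoxc6 and Hoxc13 are filled in all 8 Q175 columns and in 6, 16, 10 and 2 of the 48 others.

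Each gene was then tested with edgeR's quasi-likelihood test, with p-values adjusted over all genes of the age (Benjamini-Hochberg, threshold 0.05). Genes with a summed count of at least 15 over the 56 libraries were tested. In Q175 against controls at 10 months 13 members rose and none fell, where 1.56% of the 22945 genes tested rose and 1.78% fell (358 and 409 genes). 17 members were tested. 10 of these passed the count minimum only because of their Q175 counts and so had to differ, and neither their number nor the median below supports a change in Hox genes as a group. The median log2 change of the 17 was 3.93 (3.87 with the 2 genes that had no count in the controls set to their lower bound), and that of all genes tested was -0.01. Of the 21 members left out, 11 had between 1 and 11 counts in Q175. By cluster, 6 of 6 tested members rose in A, 2 of 4 in B, 4 of 4 in C and 1 of 3 in D. Without Q175 the count minimum was passed by 2 members of A, 2 of B, 1 of C and 2 of D. The calls by cluster therefore do not rank the clusters.

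Among the anterior genes of cluster A, Hoxa2, which patterns the second branchial arch and the anterior hindbrain, carried the most counts. The 8 Q175 libraries held 25, 44, 20, 48, 31, 24, 29 and 29 counts of it (females 1 to 4, then males 1 to 4). The 16 controls held 1 count in all, and the highest of the 48 other libraries of that age held 4. No library overlapped. Its level was 0.811 ± 0.257 CPM (SD, n = 8) against 0.00167 ± 0.00667 (n = 16). The fitted log2 change was 7.29 (SE 0.50, adjusted p = 7.05e-16), and the ratio of the counts was 476 with a 95% interval of 84.7 to 18880.

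The next genes of cluster A rose as well. Hoxa3, required for the thymus and parathyroid, had 31 counts in 6 of 8 Q175 libraries (none in female 1 and male 3) and 1 in the controls. Its ratio was 59.0 (95% interval 9.84 to 2406, adjusted p = 0.00191). Hoxa4 had 23 counts in 7 Q175 libraries, none in the controls, and was at least 14.6-fold higher (adjusted p = 1.71e-04). Hoxa5, which acts in the lung and the cervical spine, was counted 2 to 8 times in all 8 Q175 libraries and 0 to 3 times in the others. Its log2 change was 3.49 (SE 0.59, adjusted p = 3.45e-05).

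Hoxa7 differed from these in being present everywhere. It had a count in 46 of the 48 other libraries of 10 months and made up 30.1% of the Hox counts outside Q175 at 10 months. The Q175 libraries held 18, 27, 11, 21, 11, 15, 16 and 16 counts, and the controls 0 to 15 with a median of 4. Q175 and controls overlapped through Q20 female 5, a library of low connectivity that held 15, while no other control held more than 9. Outside the controls Q140 male 2, not a library of low connectivity, held 11 counts. Its 0.350 CPM lay above the lowest Q175 library (0.254). The Hoxa7 level was 0.439 ± 0.133 CPM in Q175 against 0.132 ± 0.109 in the controls. The log2 change was 1.66 (SE 0.28, adjusted p = 2.54e-05), the smallest among the 13. The posterior genes of the cluster stayed almost uncounted, with 3 counts of Hoxa9, 1 of Hoxa13 and none of Hoxa10 and Hoxa11 in the 8 Q175 libraries.

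In cluster C the genes at both ends of the counted range rose. Hoxc4, the most 3′ gene of the cluster, had 17, 15, 16, 29, 13, 13, 11 and 12 counts in Q175, 4 in the 16 controls and at most 3 in another library of 10 months. Its log2 change was 5.32 (SE 0.43, adjusted p = 3.56e-16). Hoxc6, a gene of the thoracic region and the limb-level motor columns, had 13, 17, 11, 22, 22, 15, 10 and 11 counts against 4 in the controls. Its log2 change was 5.24 (SE 0.45, adjusted p = 8.69e-13). Neither overlapped with the other 48 libraries.

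Hoxc13, the most 5′ gene of the cluster and known for its role in hair and nail, had 10, 26, 14, 16, 7, 17, 10 and 8 counts in Q175. The controls held 1 count and the 48 others 2 in all. The sets did not overlap, and the ratio was 206 (95% interval 36.1 to 8198, adjusted p = 4.87e-06). Between Hoxc6 and Hoxc13 little was counted, with 5 counts of Hoxc8, 4 of Hoxc9, 3 of Hoxc10 and none of Hoxc11 and Hoxc12. Hoxc5, with 17 counts against 2, rose by a log2 of 3.06 (SE 0.72, adjusted p = 0.0157).

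Fewer members were called in clusters B and D, where those called (Hoxb2, Hoxb13 and Hoxd8) passed the count minimum only through Q175. Hoxb13, the most 5′ gene of its cluster and a regulator of the prostate and the tail, had 2, 12, 6, 10, 2, 6, 2 and 3 counts in Q175 and 3 in the controls (27.3, 8.74 to 138, adjusted p = 5.00e-06). The 48 others held at most 1, so the sets did not overlap. Hoxb2, a hindbrain gene, had 31 counts in 6 Q175 libraries (none in males 1 and 2) against 2 (29.5, 7.51 to 255, adjusted p = 3.48e-04). Hoxd8 had 16 counts in 7 Q175 libraries against 1 (30.5, 4.73 to 1278, adjusted p = 0.00438). Hoxd9, which lay under the count minimum, had 11 counts in 5 Q175 libraries and none in the 48 others of that age.

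4 members that the hippocampus held in every group did not pass. Hoxd1 had 5, 1, 0, 5, 4, 9, 5 and 8 counts in Q175 and 0 to 6 in the others, with a log2 change of 1.24 (SE 0.39, adjusted p = 0.0584). Hoxb4 had 6 counts in the 8 Q175 libraries and 19 in the 16 controls (log2 change -0.71, SE 0.68). For Hoxb5 the log2 change was 0.87 (SE 0.80) and for Hoxd3 0.77 (SE 0.62). Leaving out Q175 female 2, Q175 female 3 or Q20 female 2 brought Hoxd1 past the threshold, to 14 members called.

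**Figure D3:**
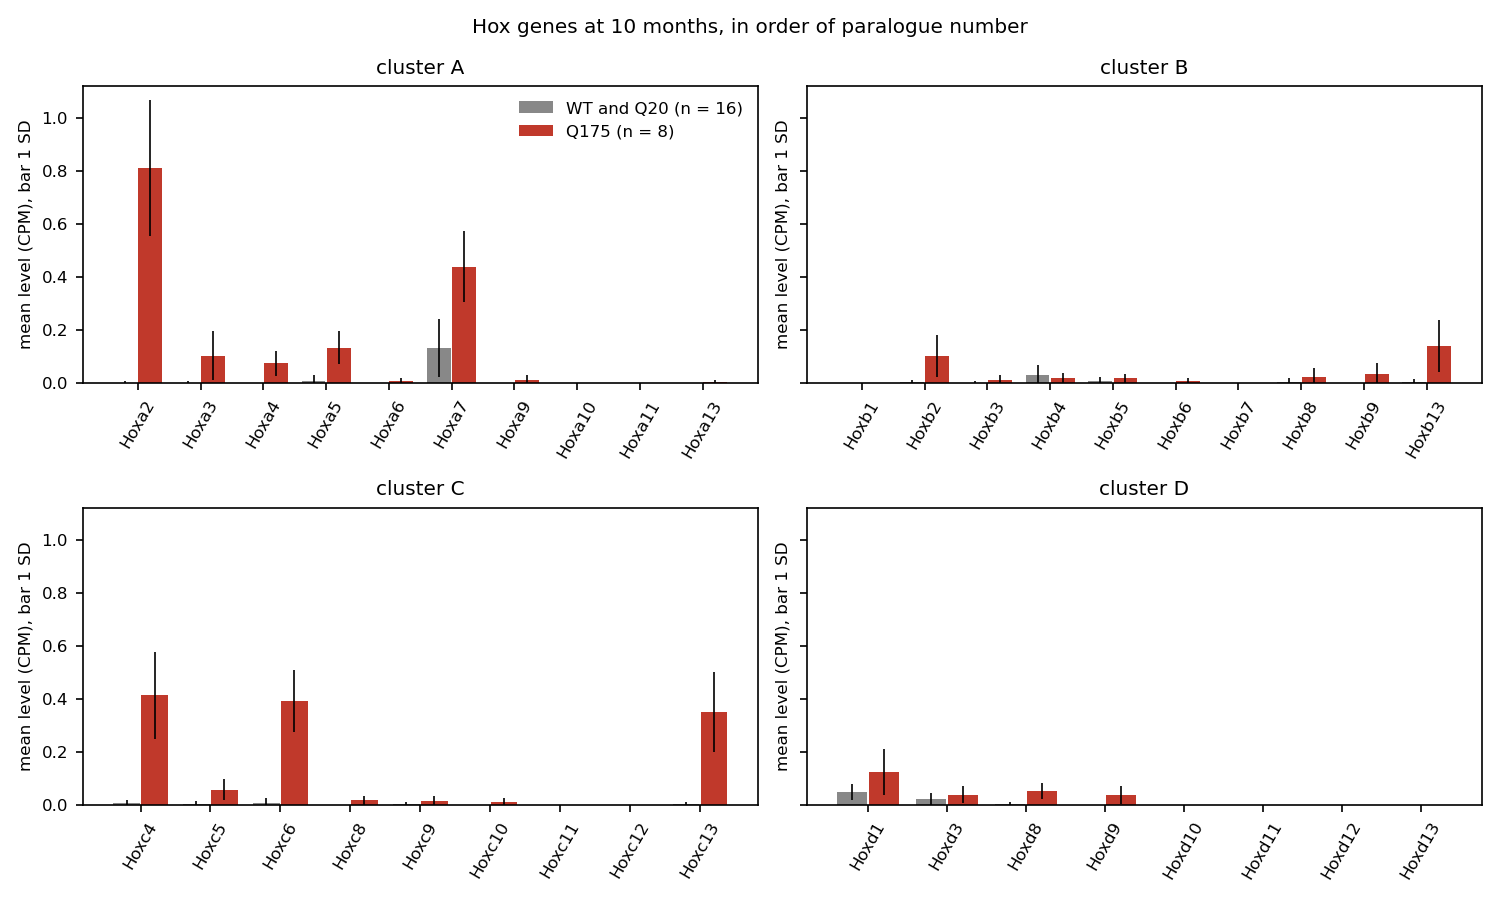
Mean level in CPM (vertical axis, error bar 1 SD, cut at 0 below) of Hox genes of clusters A to D at 10 months, in controls (WT and Q20, 16 libraries) and Q175 (8 libraries), in order of paralogue number. Hoxa2 reaches 0.811 CPM in Q175, and Hoxb13 and Hoxc13 are raised while the genes of paralogue groups 10 to 12 are at or near 0.

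Summed over the clusters, paralogue groups 8 and 9 held 28 counts each in the 8 Q175 libraries. Paralogue groups 10 to 12 hold 8 members, and together these had 3 counts there, against 152 for the 4 members of paralogue group 13. Hoxa10, Hoxa11, Hoxc11, Hoxc12, Hoxd11 and Hoxd12 had no count in any library of the series. Of the 4 members of group 13, Hoxb13 and Hoxc13 held 151, Hoxa13 had 1 and Hoxd13 none. The total of group 13 thus rests on Hoxb13 and Hoxc13, and no pattern along the clusters follows from it. Paralogue group 2 held 25.3% of the Hox counts and group 13 held 13.7%. Per kilobase, in the FPKM values of the deposit, Hoxa2 was at 0.335 ± 0.106, Hoxc6 at 0.268 ± 0.115, Hoxa7 at 0.237 ± 0.080, Hoxc4 at 0.201 ± 0.083 and Hoxc13 at 0.142 ± 0.062 FPKM (SD, n = 8). Neighbours in this order lie within 1 SD of each other.

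6 members, among them Hoxa2, Hoxb13, Hoxc4, Hoxc6 and Hoxc13, had all 8 Q175 libraries above all 48 others of 10 months, where 0.113% of the genes tested did so (26 genes). 5 of the 6 passed the count minimum only through Q175. The call of 4 weaker members rested on the test. DESeq2 called 9 members, where it called 354 of 22945 genes higher. It gave adjusted p = 0.315 for Hoxa3, 0.252 for Hoxa4, 0.632 for Hoxc5 and 0.716 for Hoxd8. With the stricter minimum of edgeR's filterByExpr only Hoxa2, Hoxa7, Hoxc4 and Hoxc6 were tested, and all 4 rose, where 341 of 17354 genes did. Outside Q175 no library of 10 months held more than 4, 3 and 2 counts of Hoxa2, Hoxc4 and Hoxc6, under the 10 set for this minimum. They passed it only through Q175, so the 4 calls are no further support.

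Several members overlap each other or an antisense gene. Hoxa2 lies within a longer annotated gene that was not analysed here. Hoxa3 spans Hoxa4, Hoxa5 and Hoxa6 and lies opposite Hoxaas2 and Hoxaas3. Hoxc5 spans Hoxc6, Hoxc8 and Hoxc9 and overlaps Hoxc10. Whether counting used the strand is not given in the sources used here, so reads of such pairs cannot be told apart, and values of these genes are uncertain. Hoxc4, Hoxc13, Hoxb13, Hoxb4 and Hoxd1 overlap no annotated gene.

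Of the 18 noncoding genes listed for the clusters 16 were in the table and 3 were tested. Hotairm1 and Hoxaas2 passed the count minimum only through their Q175 counts, with 7 and 3 counts in the other 48 libraries of 10 months, and so had to differ. Hotairm1, a noncoding gene of cluster A, had 28 counts in Q175 (1 to 11 per library) against 1 in the controls (53.3, 95% interval 8.82 to 2180, adjusted p = 4.55e-04). Hoxaas2, opposite Hoxa3, had 96 counts (5 to 18 per library) against none, and was at least 60.9-fold higher (adjusted p = 2.10e-06). Haglr, beside Hoxd1, had 51 counts against 47 and did not pass (adjusted p = 0.185). The microRNA genes of the clusters, Hotair and Hottip had no count in either group, in libraries that were not made for short RNA.

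Of 12 listed genes that flank the clusters 10 were tested, and Skap2, beyond the 3′ end of cluster A, rose with a log2 change of 0.39 (SE 0.08, adjusted p = 3.97e-04). The other 9 did not pass. Cbx5 and Hnrnpa1, beyond the 3′ end of cluster C, were at -0.01 (SE 0.07) and -0.02 (SE 0.04). Lnpk and Mtx2, on either side of cluster D, were at 0.03 (SE 0.07) and 0.05 (SE 0.08), and Skap1, next to cluster B, was at 0.06 (SE 0.19).

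The start regions of 4 members are shown to set genes that rose beside one that did not pass. They are RefSeq sequences on GRCm38.p6, 250 bases before to 50 after the start, 5′ to 3′ on the gene's strand. Capitals mark each CG pair, the dinucleotide that is dense in the CpG islands where Polycomb complexes bind. Hoxa2 (chr6:52164782-52165081, minus strand) has 9, Hoxa5 (chr6:52204538-52204837, minus strand) has 29, Hoxc4 (chr15:103034145-103034444, plus strand) has 9 and Hoxd1 (chr2:74762730-74763029, plus strand) has 29.
Hoxa2: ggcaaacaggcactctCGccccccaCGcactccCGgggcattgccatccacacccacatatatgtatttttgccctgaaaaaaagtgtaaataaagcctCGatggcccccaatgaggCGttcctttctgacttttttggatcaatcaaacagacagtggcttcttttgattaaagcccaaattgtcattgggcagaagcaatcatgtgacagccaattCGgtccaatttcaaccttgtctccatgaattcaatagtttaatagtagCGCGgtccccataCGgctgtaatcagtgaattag
Hoxa5: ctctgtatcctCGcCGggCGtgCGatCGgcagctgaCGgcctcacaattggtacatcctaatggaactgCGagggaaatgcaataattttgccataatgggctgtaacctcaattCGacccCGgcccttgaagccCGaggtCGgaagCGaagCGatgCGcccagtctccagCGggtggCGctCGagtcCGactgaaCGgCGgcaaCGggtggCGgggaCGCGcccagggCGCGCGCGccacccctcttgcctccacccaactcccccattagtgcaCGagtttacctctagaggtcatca
Hoxc4: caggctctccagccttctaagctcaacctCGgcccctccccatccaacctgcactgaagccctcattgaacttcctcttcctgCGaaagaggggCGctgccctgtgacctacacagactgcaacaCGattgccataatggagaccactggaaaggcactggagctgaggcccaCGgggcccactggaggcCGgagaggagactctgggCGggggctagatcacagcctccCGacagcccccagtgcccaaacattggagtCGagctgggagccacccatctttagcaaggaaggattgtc
Hoxd1: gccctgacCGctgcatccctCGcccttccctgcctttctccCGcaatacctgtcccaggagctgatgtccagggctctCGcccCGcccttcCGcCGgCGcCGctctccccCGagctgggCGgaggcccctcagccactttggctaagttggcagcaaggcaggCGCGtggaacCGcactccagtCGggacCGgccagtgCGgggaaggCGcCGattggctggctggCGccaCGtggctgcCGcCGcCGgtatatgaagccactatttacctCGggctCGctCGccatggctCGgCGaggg

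The table held 23 start regions of 21 members, with a median of 15 CG pairs, where the median of all 32851 mouse start regions of this length was 7 and 94.6% held at least 1. In the 6 members that rose and had a start region CG pairs ranged from 6 to 29, and in the remaining ones from 4 to 45. The letters TATAAA, searched on both strands, stood in 3 of the 23 and in 13.6% of all start regions. These are letters in a window and say nothing of binding.

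At 2 months 17 members were tested and none was called by edgeR in Q175 (background 0.118%) or on CAG length (0.153%), with 0 at an unadjusted p under 0.05 in either and 0 called by DESeq2. Of all 22940 genes DESeq2 called 17 higher and 12 lower in Q175, and 4 and 3 on CAG length. No share over all genes is given for unadjusted p, here or below, so such counts are a description. In Q80, Q92, Q111 and Q140 of that age none was called either (background 0.0218%, 0.0131%, 0.0436% and 0.0174%). The unadjusted p was under 0.05 for 1, 2, 1 and 1 members, and DESeq2 called none. Over all genes it called 1, 0, 6 and 6 higher and 17, 2, 7 and 19 lower in these lines. The summed level was 0.158 to 0.499 CPM in Q175 and 0.133 to 0.913 in the controls.

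At 6 months the Q175 libraries were at 0.474, 0.545, 0.568, 0.540, 0.426, 0.812, 0.530 and 0.597 CPM (females 1 to 4, then males 1 to 4). WT, which shares their series of library numbers, ranged from 0.169 to 0.517 CPM with a median of 0.293, so the 2 groups overlapped in their tails. The other 5 genotypes ranged up to 0.603 CPM. Cluster C had 37 counts in the 8 Q175 libraries and 7 in the 8 WT libraries, while cluster D had 23 in each. Hoxc4 had 14 counts against 1, Hoxc6 15 against 3 and Hoxa2 14 against 2.

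None of the 11 members tested at 6 months was called by edgeR in Q175 (background 3.66%) or on CAG length (3.38%), and DESeq2 called none. Of all 22901 genes DESeq2 called 371 higher and 577 lower in Q175, and 325 and 525 on CAG length. In Q175 and on CAG length 3 and 4 members had an unadjusted p under 0.05. None was called in Q80, Q92, Q111 or Q140 (background 0%, 0%, 0.00437% and 0.0437%). The unadjusted p was under 0.05 for 0, 3, 2 and 1 members, and DESeq2 called none. Over all genes it called 0, 0, 1 and 9 higher and 1, 0, 0 and 4 lower in these lines. The lowest adjusted p in Q175 was 0.0728, for Hoxc4 (log2 change 2.91, SE 0.95). Hoxa2, Hoxc4 and Hoxc6 were the 3 with an unadjusted p under 0.05 in Q175. They had 8, 11 and 6 counts in the other 48 libraries of that age and passed the count minimum only through Q175. Neither their p-values nor their number therefore supports a rise at this age. WT and Q175 alone came from a separate series of library numbers at this age, and the fit carried a term for it. Without that term Hoxc4, Hoxc6 and Hoxa2 were called in Q175 (adjusted p = 0.00707, 0.0149 and 0.0206), while over all genes 1038 rose and 1075 fell of 22901, against 839 in either direction with the term.

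**Figure D4:**
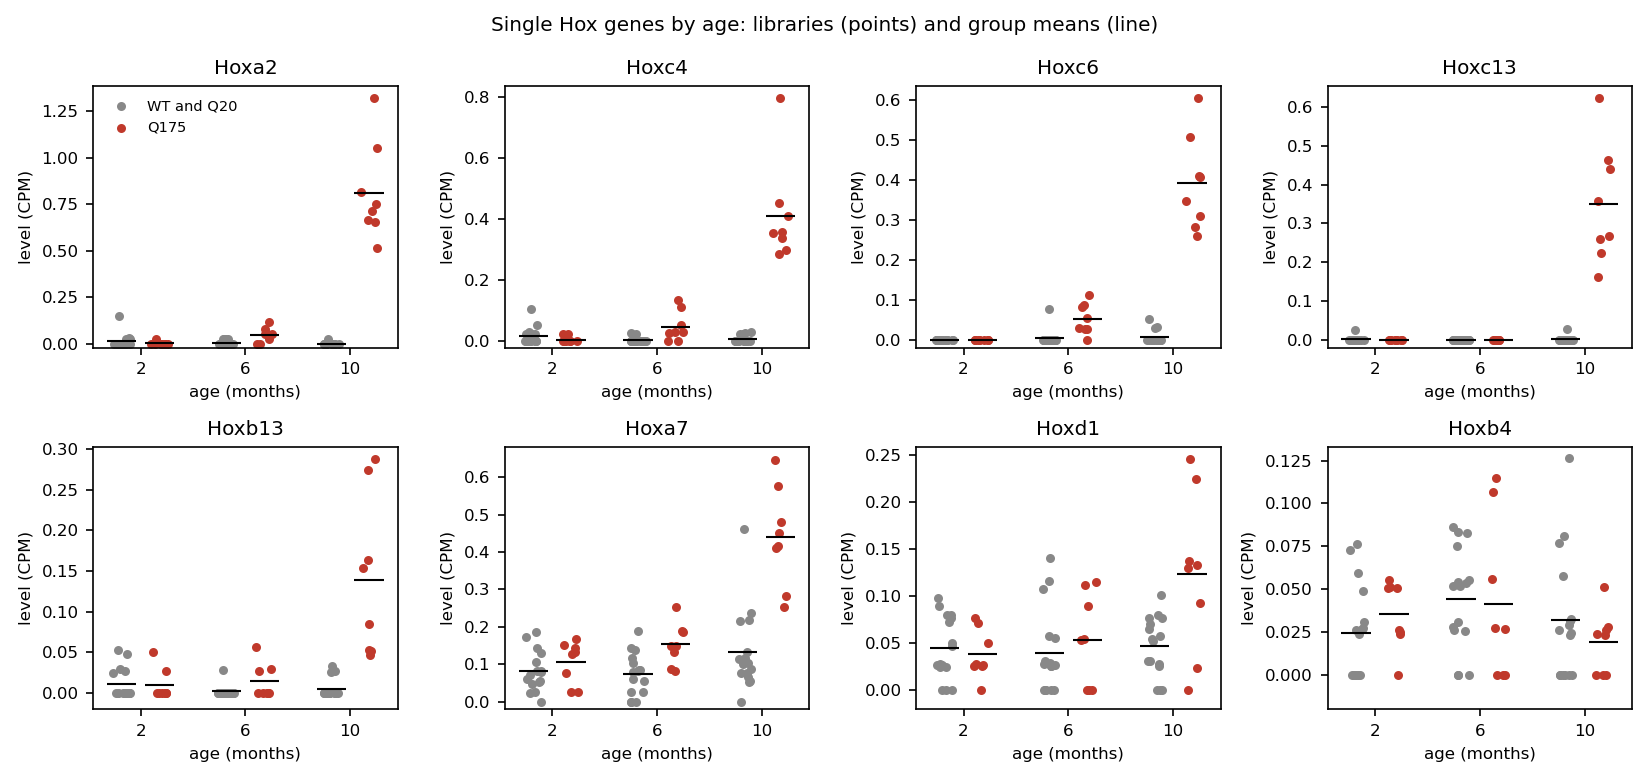
Level in CPM (vertical axis) of 8 Hox genes in control and Q175 libraries (points, group mean as a line) at 2, 6 and 10 months (horizontal axis). Hoxa2, Hoxc4, Hoxc6, Hoxc13 and Hoxb13 are separated at 10 months, Hoxa7 is raised on a level present at all ages, and Hoxd1 and Hoxb4 overlap between the groups.

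On CAG length as a number, the same 13 members rose at 10 months, where 0.824% of all genes did (189 genes). Here too 10 of the 17 members tested passed the count minimum only because of their Q175 counts and so had to differ. Their number does not support a change in Hox genes as a group. The slope was 8.19 per 100 repeats for Hoxa2 on the log2 scale (SE 0.54, adjusted p = 2.84e-13), 7.61 for Hoxc13 and 5.62 for Hoxc6. DESeq2's Wald test gave 4.07 for Hoxa2 and called 7 members, where it called 183 of 22945 genes higher. Without Q175 female 2 Hoxa7 lost its call on the slope (adjusted p = 0.0658). In Q80, Q92, Q111 and Q140 none of the 17 members was called (background 0.0261%, 0.00872%, 0.00872% and 0.0523%), by edgeR or DESeq2, and 1, 1, 1 and 0 had an unadjusted p under 0.05. Over all genes DESeq2 called 28, 4, 4 and 19 higher and 36, 9, 12 and 26 lower in these lines. These comparisons share their controls with that of Q175. Without the Q175 libraries 7 members could be tested and none was called, and the slope of Hoxa7 turned from 1.04 to -0.27 (SE 0.29).

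The slope itself changed with age. In a fit over the libraries of all ages it was higher at 10 than at 2 months for 10 of 22 members tested, where 0.277% of 24918 genes were. The difference was 8.77 per 100 repeats for Hoxa2 (SE 1.02, adjusted p = 1.05e-10), 6.12 for Hoxc4 (SE 0.86) and 4.07 for Hoxb13 (SE 0.84). Between 6 and 10 months Hoxa2 passed (7.26, SE 1.34, adjusted p = 7.25e-04, background 0.0482%), and between 2 and 6 months none did (background 0.00401%), with 2 at an unadjusted p under 0.05. This fit was not run in DESeq2. Several of these members were counted almost only in Q175 at 10 months, as above, so their number does not support a change with age in Hox genes as a group. The ages also came from separate runs of library numbers.

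Over the other 20 groups the totals of 8 libraries were 16 to 44 for Hoxa7 (135 in Q175 at 10 months), 4 to 28 for Hoxd1 (37), 4 to 13 for Hoxb4 (6), 1 to 11 for Hoxd3 (12) and 1 to 12 for Hoxb5 (6). For Hoxa2, Hoxc4 and Hoxc6 the highest of the 20 was Q175 at 6 months, with 14, 14 and 15 counts. For Hoxc13 it was 3 counts, in Q111 at 6 months, and 14 of the 20 groups had none.

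Markers of other tissues were read in the same libraries. Of 12 hindbrain and spinal cord genes outside the Hox clusters 10 were tested and 1 rose, and their median summed level at 10 months was 2.59 CPM in Q175 (from 2.25) and 2.12 in the controls (1.43 to 3.08), with overlap. The gene that rose was En1, a homeobox gene of the midbrain and hindbrain border (73 counts against 18, log2 change 2.78, SE 0.41, adjusted p = 3.47e-07). The median log2 change of the 10 tested was 0.38, against -0.01 for all genes. Phox2a and Lbx1 had 4 and 3 counts in the 8 Q175 libraries. The noradrenergic genes Dbh and Slc6a2 went against the median of the list, with log2 changes of -0.85 (SE 0.26) and -0.72 (SE 0.56). No gene was called in the lists for midbrain and diencephalon (8 tested), cerebellum (6), endothelium (5), fibroblasts and meninges (8), blood cells (9), pituitary (3), and liver and kidney (2), and their summed levels overlapped between the groups.

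Choroid plexus genes varied between dissections, with none of 11 called and 34.2 to 7077 CPM in Q175 against 39.4 to 8298 in the controls. Ttr, the marker with most counts, was at 2874 CPM in Q175 female 3 and 6622 in Q175 male 4, and at 4.26 to 145 in the other 6. Hox levels of those 2 libraries, 2.79 and 3.23 CPM, lay within the range of the 6 libraries with little Ttr (2.70 to 5.71). Hippocampal neuron markers moved as well, since C1ql2 and Dsp of the dentate gyrus, Wfs1 of CA1 and Neurod6 of pyramidal cells fell (4 of 9, log2 changes -0.94, -0.84, -0.91 and -0.53). In bulk tissue, fewer cells of a type and less RNA per cell cannot be told apart. The part of this shift in the Hox values was not tested.

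Of 9 cofactors that bind DNA with Hox proteins, Meis1 rose (log2 change 0.67, SE 0.09, adjusted p = 9.82e-07), while the other 8, among them Pbx2, Pbx3, Pknox1 and Meis2, did not pass. Of 33 Polycomb genes 3 rose and none fell. Among those that rose were Cbx2 (0.64, SE 0.09) and Cbx8 (0.71, SE 0.09), which encode chromodomain subunits of a Polycomb repressive complex. The core methyltransferase subunits Ezh2, Eed and Suz12 were not called, nor were any of 8 Trithorax genes, which counter Polycomb. Of 8 ParaHox and related homeobox genes, Gsx1 and Gsx2 rose (117 counts against 95 and 141 against 97, log2 changes 1.17 and 1.43, adjusted p = 0.00251 and 2.44e-05), and the Cdx genes, which act on Hox clusters in the embryo, had no count in Q175. The summed level of the 8 was 0.683 to 1.10 CPM in Q175 and 0.132 to 0.562 in the controls, without overlap. The lists' median log2 changes were 0.01 for cofactors, 0.04 for Polycomb and -0.02 for Trithorax, against -0.01 for all genes.

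Across all libraries no gene tracked the summed Hox level closely. Among 17416 genes with at least 1000 counts the highest Spearman rank correlation was 0.42, for Neo1, and the next were Sfmbt2 (0.38), Zadh2, Atp10d, Scn9a, C1qtnf2, Trim56, Ppfibp1, Cast and Trp73 (0.35). The libraries share genotype, age and depth, and the 160 outside Q175 at 10 months hold a few Hox counts each, so these values are a description. Scn9a, a sodium channel gene, was called in Q175 at 10 months (log2 change 0.83, SE 0.11, adjusted p = 4.14e-07), and so was Sfmbt2, a Polycomb group gene (0.60, SE 0.12, adjusted p = 8.05e-04) and Trp73 (0.54, SE 0.14, adjusted p = 0.0179). The other 7 were not called.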

How the data were processed

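The authors deposited 1 table of expected counts, that is estimated counts per gene that need not be whole, and 1 of FPKM for the same 168 libraries, which the authors normalised to gene length and depth. Per the labels' processing notes reads were handled with CASAVA 1.8.2. For these mRNA tables, aligner, annotation and build were not given in the sources used here. Counts were rounded and the 38 members matched by symbol, with coordinates from GENCODE M21 (GRCm38). CPM is the count over the library total, times 1e6.

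Tests were run in edgeR 4.0.16 (TMM scaling, glmQLFit and glmQLFTest, two-sided) within each age, with sex as covariate and, at 6 months, the series of library numbers. Q175 then rested on WT and the other lines on Q20. CAG length entered as a number, or each expanded line against WT and Q20. Changes of the slope between ages came from 1 fit over all libraries. Benjamini-Hochberg adjustment was over all genes tested. The fit was tested on simulated data. Alternatives were another count minimum or none, DESeq2 1.42.0 size factors or Wald test, unrounded counts, lane runs, a block of replicate numbers, and fits without divergent libraries (standardized connectivity under -5) or single libraries. Summed levels carry no test.

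Named are members past the threshold anywhere, the 10 with most counts, list genes that passed, and the 10 genes most correlated with the Hox sum. Members and gene lists were chosen with earlier results of these data known. P-values measure the spread between mice. Results of 1 member and of some list genes are not reported here by name, and counts over members include that member.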

Additional observations from a re-analysis of the deposited data

Results flagged for a closer look

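Within 2 of the 21 groups of 8, a library's summed Hox level stood apart from the rest of its group (Dixon's test, 95% level), where chance gives about 1 in 20 groups. Q20 female 4 at 2 months was at 0.913 CPM (36 counts over 16 members), and the next library of its group was at 0.387. It is also a library of low connectivity. Q175 male 2 at 6 months was at 0.812 CPM (29 counts over 9 members), with the next at 0.597.

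The slope on CAG length differed between 2 and 10 months for 10 members, 9 of which are given here, tested as an interaction over the libraries of all ages. On the log2 scale per 100 repeats it was higher at 10 months by 8.77 for Hoxa2, 3.87 for Hoxa4, 3.44 for Hoxa5, 3.49 for Hoxb2, 4.07 for Hoxb13, 6.12 for Hoxc4, 3.05 for Hoxc5, 8.15 for Hoxc13 and 2.82 for Hoxd8 (edgeR adjusted p between 1.05e-10 and 0.0266). Between 6 and 10 months it differed for Hoxa2, by 7.26 (adjusted p = 7.25e-04). Several of these members were counted almost only in Q175 at 10 months, with 108 of 116 counts for Hoxc13 and 250 of 303 for Hoxa2. The number of members called therefore does not support a change with age in Hox genes as a group.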

How the results depend on the processing

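In 24 fits of Q175 against controls at 10 months that left out 1 Q175 or control library, 13 to 14 members were called and all 13 calls were kept. For the slope at 10 months 13 to 14 were called, and at least 12 of the 13 were kept, Hoxa7 losing its call without Q175 female 2. The log2 change of Hoxa2 ranged from 7.15 to 7.87 and that of Hoxa7 from 1.53 to 1.89. DESeq2 size factors, lane runs, unrounded counts and leaving out the divergent libraries each gave 13 calls in both. Over all genes size factors, lane runs and unrounded counts called 324, 366 and 330 higher in Q175, and 180, 190 and 183 on the slope. Without the divergent libraries the calls over all genes in Q175 went from 358 to 959 higher and from 409 to 1179 lower, and on the slope from 189 to 539 higher. No minimum on counts gave 14, where 305 of 28198 genes were called higher in Q175 and 165 on the slope. The stricter minimum of filterByExpr gave 4 calls among 4 members tested for Q175, where 341 of 17354 genes were called higher. Hoxa2, Hoxc4 and Hoxc6 passed that minimum only through Q175. The same minimum gave 0 for the change of slope between ages, where 1 member was tested and 59 of 17808 genes were called higher from 2 to 10 months. It left no member to test on the slope within an age, or at 2 and 6 months. The DESeq2 Wald test gave 9 calls for Q175 and 7 for the slope, where 354 and 183 of 22945 genes were called higher. Without the Q175 libraries the slope at 10 months gave 0 calls, 7 members being tested, and that of Hoxa7 reversed to -0.27. Without the library series term at 6 months 2 members were called on the slope and 3 in the lines, where the fit with it called none. The 3 were Hoxa2, Hoxc4 and Hoxc6 in Q175, which passed the count minimum only through Q175. Over all 22901 genes the fit without the term called 249 higher and 273 lower on the slope, and 1038 higher and 1075 lower in Q175. Otherwise the cause of these changes was not tested. Over the 3 contrasts between ages 11 changes of slope were called (10 from 2 to 10 months and 1 from 6 to 10 months). Leaving out divergent libraries also gave 11, 10 of them shared, with Hoxc5 lost (adjusted p = 0.103) and Hoxa7 added. Of 24721 genes 111 were then called higher from 2 to 10 months and 15 from 6 to 10 months.

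The replicate numbers of the titles did not pair the libraries. Of 162 same-numbered pairs at 10 months 46 had deviations correlated above 0.1, with a median of -0.02. With the replicate block 12 members were called in Q175 at 10 months, Hoxc5 being at adjusted p = 0.0512, 13 on the slope and 10 of the 11 changes of slope, Hoxd8 being lost (adjusted p = 0.0628). Of 22945 genes 444 were called higher in Q175 and 228 on the slope with that block. Of 24918 genes it called 51 higher from 2 to 10 months and 11 from 6 to 10 months. The ratio of the summed Hox medians at 10 months, 11.1, was 11.3 from FPKM and 11.4 without the divergent libraries. In the main fits within an age, members with under 15 counts were left out by the count minimum.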
